A study of Mus musculus with 17 samples.

Results

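GABA-A receptor subunit genes were compared between hippocampi of epileptic and control mice. The 7 genes were Gabra2, Gabra3, Gabra4 and Gabra5, which encode alpha subunits, Gabrb1 and Gabrb2, which encode beta subunits, and Gabrd, which encodes the delta subunit. They were picked by symbol, looked up through the Ensembl identifiers of the 55450 genes listed in the deposited counts, and all 7 passed the filter on low counts, which left 17615 genes. Their levels are given as CPM, that is the reads of a gene scaled to a common library size. A rule that used only gene names chose them, not their levels, although the list itself was drawn up with earlier results of these data known.

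RNA-seq was performed on 17 libraries of polyadenylated hippocampal RNA, 1 per sample. Control sgLacZ mice (n = 5, sham controls) and epileptic sgLacZ mice (n = 6) carried a guide RNA against a bacterial gene, and epileptic sgKcna1 mice (n = 6) a guide to the promoter of the potassium channel gene Kcna1. Epilepsy had been set off by kainic acid, which activates glutamate receptors, injected into the right amygdala, and status epilepticus was ended with diazepam, a drug that itself enhances GABA-A receptors. Per the study's methods, kainic acid was given to wild-type C57BL/6J mice, the mice of the study were 2 to 3 months old and of both sexes, and the labels give neither strain nor sex of a library. Mice of all groups carried AAV9 vectors in the right ventral hippocampus and were fed doxycycline for 2 weeks. The vectors encode the guide and a doxycycline-inducible dead Cas9 fused to an activator (dCas9A), whose inducer was under a Camk2a promoter. The study chose this promoter to favour excitatory neurons, and saw no overlap of its reporter with a marker of inhibitory neurons in the brains examined. The RNA came from whole hippocampal tissue, so cells without vector, interneurons and glia contributed reads, and the guide to Kcna1 in non-epileptic mice is not analysed here.

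GABA-A receptors are chloride channels that GABA, the main inhibitory transmitter of the adult brain, opens. Each channel is a ring of subunits, usually alpha and beta subunits together with a gamma or a delta subunit, and the alpha subunit largely sets where the receptor sits and which drugs act on it. Receptors with alpha 2 and alpha 3 are found at synapses, receptors with alpha 5 mostly outside synapses of pyramidal cells, and receptors with alpha 4 and delta outside synapses of dentate granule cells, where they carry a steady current sensitive to neurosteroids.

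Of the 7 genes, 3 lie close together on chromosome 5 (GRCm38.p6): Gabra2 from 70958392 to 71095849, Gabra4 from 71569734 to 71658308 and Gabrb1 from 71657921 to 72149572. Gabra4 on the minus strand and Gabrb1 on the plus strand point away from each other, and their annotated first bases overlap over 388 bases. Gabra5 lies on chromosome 7 (57407669 to 57591016), Gabrb2 on chromosome 11 (42419515 to 42632591), Gabra3 on chromosome X (72432676 to 72656919) and Gabrd on chromosome 4 (155384979 to 155398098). The RefSeq promoter table (GRCm38.p6, 250 bases before to 50 after the start) held 10 promoters for 6 of the 7 genes. Printed 5′ to 3′ on the gene's own strand are the promoters of the chromosome 5 neighbours, whose mean levels were lower in epileptic sgLacZ than in control libraries, and the first promoter of Gabrb2, whose mean was higher. They lie at chr5:71095800-71096099 (Gabra2, minus strand), chr5:71658259-71658558 (Gabra4, minus strand), chr5:71657671-71657970 (Gabrb1, plus strand) and chr11:42420190-42420489 (Gabrb2, plus strand). Capitals mark matches on either strand to the GC box, spelled GGGCGG, which Sp family factors bind. They also mark the EGR site, spelled GCGNGGGCG, which factors switched on by neuronal activity bind. The remaining capitals mark the TATA box, spelled TATAAA, and the short form of the cAMP response element (CRE), spelled TGACG.
Gabra2: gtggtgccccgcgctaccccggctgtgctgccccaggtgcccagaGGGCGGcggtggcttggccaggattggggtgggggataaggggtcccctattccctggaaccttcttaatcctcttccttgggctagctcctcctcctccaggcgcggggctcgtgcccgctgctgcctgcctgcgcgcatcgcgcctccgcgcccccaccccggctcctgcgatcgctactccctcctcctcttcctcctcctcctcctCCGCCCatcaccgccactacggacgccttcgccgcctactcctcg
Gabra4: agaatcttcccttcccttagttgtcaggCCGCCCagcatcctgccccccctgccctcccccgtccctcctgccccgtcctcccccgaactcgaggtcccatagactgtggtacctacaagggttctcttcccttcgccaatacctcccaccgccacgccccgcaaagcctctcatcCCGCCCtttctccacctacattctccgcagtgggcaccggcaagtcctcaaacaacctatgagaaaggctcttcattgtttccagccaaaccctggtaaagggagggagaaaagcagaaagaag
Gabrb1: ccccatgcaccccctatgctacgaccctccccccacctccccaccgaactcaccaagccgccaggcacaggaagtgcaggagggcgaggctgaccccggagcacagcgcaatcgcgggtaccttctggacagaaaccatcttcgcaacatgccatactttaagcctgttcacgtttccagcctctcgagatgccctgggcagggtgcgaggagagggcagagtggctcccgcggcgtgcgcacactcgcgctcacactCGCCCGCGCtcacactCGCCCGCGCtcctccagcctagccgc
Gabrb2: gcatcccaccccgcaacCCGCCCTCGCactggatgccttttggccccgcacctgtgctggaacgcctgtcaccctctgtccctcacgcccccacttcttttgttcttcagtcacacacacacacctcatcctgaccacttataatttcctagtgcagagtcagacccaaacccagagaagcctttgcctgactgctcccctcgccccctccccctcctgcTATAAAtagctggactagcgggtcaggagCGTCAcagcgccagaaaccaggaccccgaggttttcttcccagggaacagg
GC boxes stood in the promoters of Gabra2 and Gabra4, and the Gabrb1 promoter held 2 EGR sites, both after its start. Gabrb2 was the only 1 of the 4 printed promoters with a TATA box, and it also held a short CRE and a GC box that overlaps an EGR site. Among all 32851 promoters of the table, 35.7% held a GC box, 5.55% an EGR site, 13.6% a TATA box and 20.8% a short CRE, against 3, 2, 3 and 1 of the 10 promoters of these genes. A match is a description of the letters and not a bound site.

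The libraries held 11839240 to 28311328 reads in genes, so that 3 reads, taken as the floor of detection, were 0.106 to 0.253 CPM, which covers counting error only. Kcna1, the target of the guide, lay between 25.5 and 44.03 CPM in control, 16.9 and 56.7 in epileptic sgLacZ and 13.9 and 133 in epileptic sgKcna1 libraries. Its medians in these groups were 34.6, 27.6 and 19.1 CPM. Between the epileptic groups it was not past the threshold (log2 fold change 0.32, SE 0.47, adjusted P = 0.706), and its median was lower with sgKcna1 although the fold change was positive. The study saw a rise by quantitative PCR against the opposite hippocampus, and no clear one by RNA-seq. The markers of dentate granule cells (6 genes) and CA pyramidal cells (8 genes) were detected above the floor in every group. Libraries differed in length tilt, the Spearman correlation across 10114 genes between transcript length and the deviation of a gene from its mean level. A high value means that long transcripts are relatively well covered. It lay between -0.44 and -0.27 in controls, between -0.29 and 0.19 in epileptic sgKcna1 and between -0.54 and 0.60 in epileptic sgLacZ libraries, where replicates 4, 7 and 9 had the highest values. Unmapped reads made up 19.5 to 27.7% in controls, 11.0 to 24.1% in epileptic sgLacZ and 19.1 to 41.5% in epileptic sgKcna1 libraries, the top value being that of epileptic sgKcna1 replicate 12, also the shallowest library. By reads of Xist and Y-linked genes, 2 of 5 control, 4 of 6 epileptic sgLacZ and 2 of 6 epileptic sgKcna1 libraries were female, and 6 libraries held at least 20 reads of both kinds. The labels name no batch and do not say whether replicates are separate animals, so the P-values measure the spread between these libraries.

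Per kilobase of the longest protein-coding transcript, the alpha 2 gene was the most abundant of the 7 in control hippocampus. Gabra2 had 238 ± 24.9 CPM per kb (SD, n = 5), followed by Gabra5 with 74.04 ± 7.28, Gabrb1 with 53.3 ± 4.73, Gabra4 with 28.2 ± 1.85, Gabrd with 16.9 ± 2.34, Gabra3 with 12.04 ± 1.11 and Gabrb2 with 0.39 ± 0.17. In controls no gene's range met that of its neighbour in this order. In epileptic sgLacZ libraries the order was the same down to Gabra4, and Gabra3 (17.04 ± 2.49 CPM per kb, n = 6) then stood next to Gabrd (14.6 ± 2.23) with overlapping ranges. In epileptic sgKcna1 libraries the ranges of all neighbours from Gabra5 to Gabra3 overlapped.

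**Figure D1:**
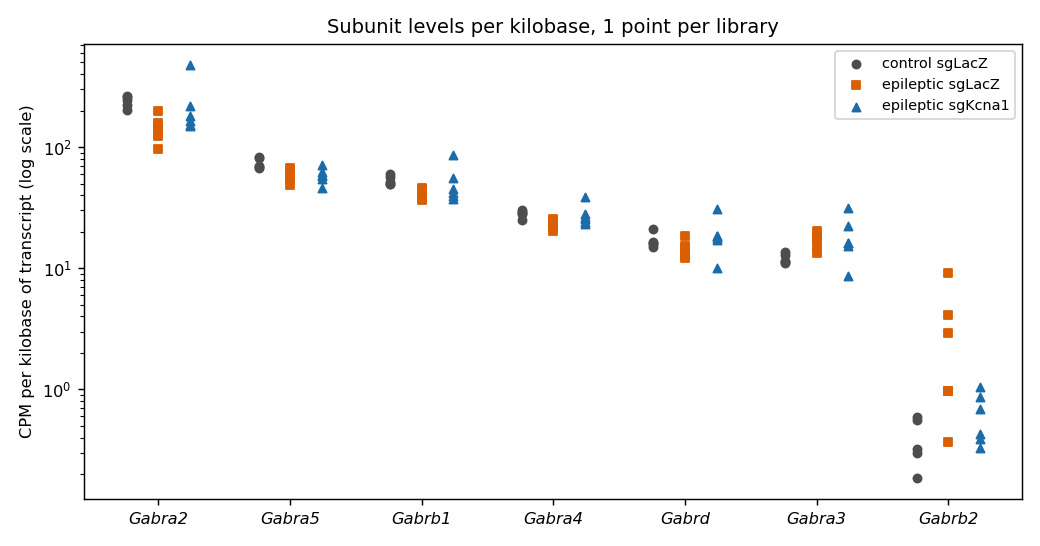
Levels of the 7 subunit genes in CPM per kilobase of transcript on a log axis, 1 point per library, for control sgLacZ (n = 5), epileptic sgLacZ (n = 6) and epileptic sgKcna1 (n = 6) mice. Gabra2 stands highest in every group and Gabrb2 lowest, with the widest spread among the epileptic sgLacZ libraries.

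The first question was which subunit genes differ in epilepsy, for which epileptic sgLacZ were compared with control sgLacZ libraries. Gabra5 fell by 0.37 on the log2 scale and Gabrb2 rose by 2.96, and these were the only members past the adjusted threshold of 0.05. The means of Gabra2, Gabra4, Gabrb1 and Gabrd were also lower in epileptic sgLacZ libraries and that of Gabra3 higher, without passing. Across the genes tested, 7.26% were called higher and 3.76% lower, against 1 and 1 of the 7 members. At an unadjusted P under 0.05 the members numbered 2 higher and 3 lower, against 18.8% and 15.9% of all genes. The median log2 fold change was -0.29 over the members and 0.02 over all genes tested.

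The alpha 2 gene Gabra2 had 486, 529.6, 586, 614 and 627 CPM in the control libraries. In epileptic sgLacZ libraries it lay between 231 and 474 CPM with a median of 336, and every library was below every control. The log2 fold change was -0.73 (SE 0.25), a fall to 0.601 of the control level that missed the threshold (edgeR quasi-likelihood test, adjusted P = 0.0620). It passed with DESeq2 (adjusted P = 0.0309), with limma and quality weights (adjusted P = 0.000438) and in an edgeR fit of only these groups (adjusted P = 0.0231). Over all genes these fits called 2070 higher and 1616 lower, 3769 and 3532, and 1850 and 1195, against 1278 and 662 in the main fit. Gabra2 was called in 3 of 10 other settings and in 2 of 17 fits without 1 library. Non-overlapping lower values were found for 3 of the 7 members, Gabra2, Gabra5 and Gabrb1, against 2.40% of all genes, and non-overlapping higher values for 0, against 2.00%.

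Gabra5, the alpha subunit of extrasynaptic receptors in pyramidal cells, had 179, 183, 186, 214 and 221 CPM in controls and between 129 and 179 in epileptic sgLacZ libraries, with a median of 152. The groups did not overlap, but the highest epileptic library (replicate 5, 179.1 CPM) and the lowest control (replicate 15, 179.3) nearly met. The log2 fold change was -0.37 (SE 0.11, adjusted P = 0.0428). In the deposited counts the forward and reverse reads of Gabra5 sum to 1.15 times its unstranded reads, so part of its reads overlap a gene on the other strand and were counted for neither. Per library this ratio was 1.06 to 1.11 in control, 1.10 to 1.25 in epileptic sgLacZ and 1.01 to 1.23 in epileptic sgKcna1 libraries, so fewer of its reads tended to be left out in controls than in epileptic sgLacZ libraries, with ranges that met. With the sum of both strands as the count, the log2 fold change of Gabra5 was -0.26 and no longer past the threshold (adjusted P = 0.0687).

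Gabra4, the partner of delta in dentate granule cells, had 104, 115, 117, 120.3 and 124 CPM in controls and between 83.4 and 105 CPM in epileptic sgLacZ libraries (median 95.8). Only the top epileptic library, replicate 5, reached the lowest control. The log2 fold change was -0.29 (SE 0.11) and did not pass (adjusted P = 0.0821). Gabra3, an alpha subunit found at synapses, went the other way, with 40.5, 41.1, 42.1, 47.04 and 49.7 CPM in controls and between 49.03 and 73.9 in epileptic sgLacZ libraries (median 64.7). Only epileptic sgLacZ replicate 5 lay inside the control range, and the log2 fold change of 0.50 (SE 0.22) did not pass (adjusted P = 0.110). The ratio of Gabra3 to Gabra2 CPM within a library, on which scaling between libraries has no bearing, was 0.0656 to 0.0938 in controls and 0.103 to 0.320 in epileptic sgLacZ libraries, without overlap. In epileptic sgKcna1 libraries it was 0.0277 to 0.222, which overlapped both groups. This ratio joins genes whose means moved apart, and the other 3 ratios computed (Gabra5, Gabrb1 and Gabrd, each to Gabra4) overlapped between control and epileptic sgLacZ libraries.

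Gabrb1, which encodes the beta 1 subunit, had 152, 152, 158, 176 and 184 CPM in controls and between 114 and 141 CPM in epileptic sgLacZ libraries (median 133). All epileptic libraries were below all controls, while the fitted log2 fold change of -0.35 (SE 0.17) did not pass (adjusted P = 0.148). Gabrd, the delta subunit, had 28.8, 30.7, 30.95, 31.6 and 40.3 CPM in controls and between 23.5 and 35.4 in epileptic sgLacZ libraries (median 27.6). Its groups overlapped, and the log2 fold change was -0.21 (SE 0.19, adjusted P = 0.439), within the spread between replicates.

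Gabrb2, which encodes the beta 2 subunit, was the least abundant member, with 1.41, 2.27, 2.49, 4.25 and 4.52 CPM in controls. Epileptic sgLacZ libraries had 2.82 CPM in replicate 5, 7.47 in replicates 6 and 8, 22.3 in replicate 9, 31.7 in replicate 7 and 69.6 in replicate 4. The 3 highest values belonged to the libraries with the 3 highest length tilts, in the same order, and replicate 5, with the lowest tilt, lay inside the control range. Replicate 4 also had the highest sum of 5 thalamus markers of all 17 libraries, 175 CPM, and the part of such tissue was not tested. The log2 fold change was 2.96 (SE 0.64, adjusted P = 0.0320). With length tilt as a covariate it was 0.87 (SE 0.44, adjusted P = 0.754), and without replicates 4, 7 and 9 it was 0.97 (SE 0.43, adjusted P = 0.788), both chosen after seeing the data. The longest protein-coding transcript of Gabrb2 has 7665 bases, longer than 94.8% of the tested genes with a length, and its log2 CPM correlated with length tilt at 0.86 across the 17 libraries, a description, since the tilt itself differs between the groups. The part of length tilt in the difference was not tested. The annotation used for counting is not given in the sources used here, so whether all exons and 3′ ends of Gabrb2 were counted was not checked, and its low level is to be read with that limit.

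**Figure D2:**
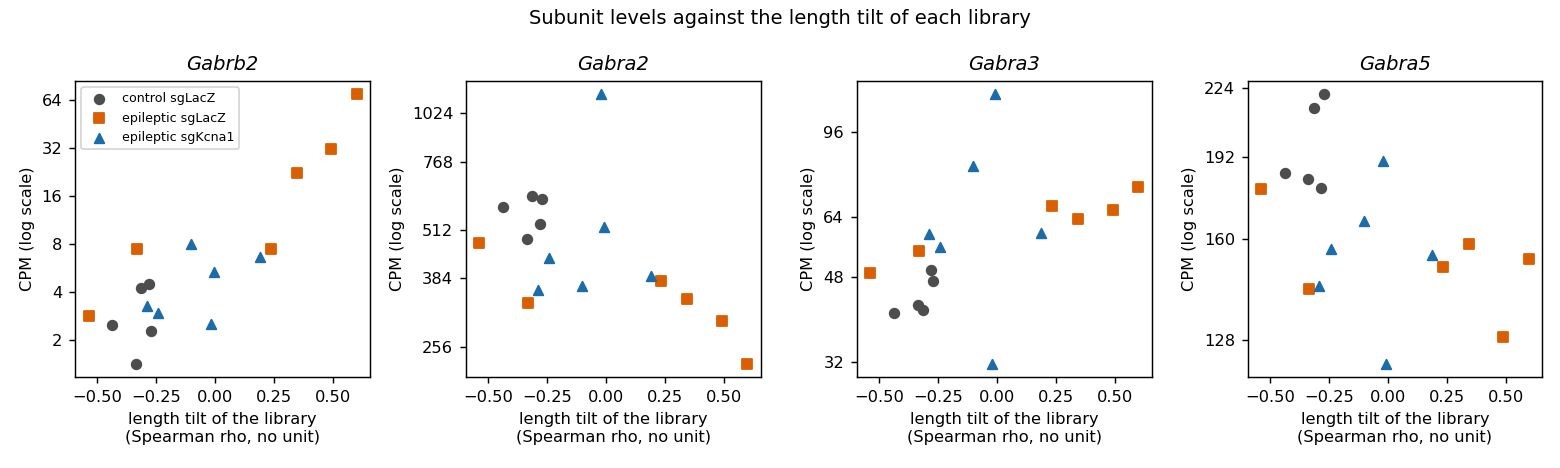
CPM (log axis) of Gabrb2, Gabra2, Gabra3 and Gabra5 against the length tilt of each library, 1 point per library in 3 groups. The 3 epileptic sgLacZ libraries above a tilt of 0.3 hold the 3 highest Gabrb2 values, and Gabra2 is lowest in the library of highest tilt.

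For the other members the same 2 settings kept the direction in epileptic sgLacZ against control except for Gabrd, which turned to 0.02 with the tilt covariate. With that covariate the log2 fold changes were -0.57 for Gabra2, 0.28 for Gabra3, -0.21 for Gabra4, -0.31 for Gabra5 and -0.41 for Gabrb1, and no gene of the whole table was called. Gabra2 and Gabra4 also followed the share of unmapped reads, with correlations of 0.88 and 0.87 across the 17 libraries, and Gabrb2, Gabra3 and Gabrb1 with -0.70, -0.68 and 0.69. With that share as a covariate Gabra2 was -0.40 (adjusted P = 0.0803), Gabrb2 1.68 (adjusted P = 0.0856), Gabra3 0.19, Gabra4 -0.15 and Gabrb1 -0.17, and no member was called. Leaving out any 1 of 7 libraries (epileptic sgLacZ 4, 7 or 9, or control 13, 14, 16 or 23) also ended every call of the table, members included. Without epileptic sgKcna1 replicate 12 the members called numbered 6, with Gabrd the exception, while 2655 genes were called higher and 2122 lower of 17608 tested.

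**Figure D3:**
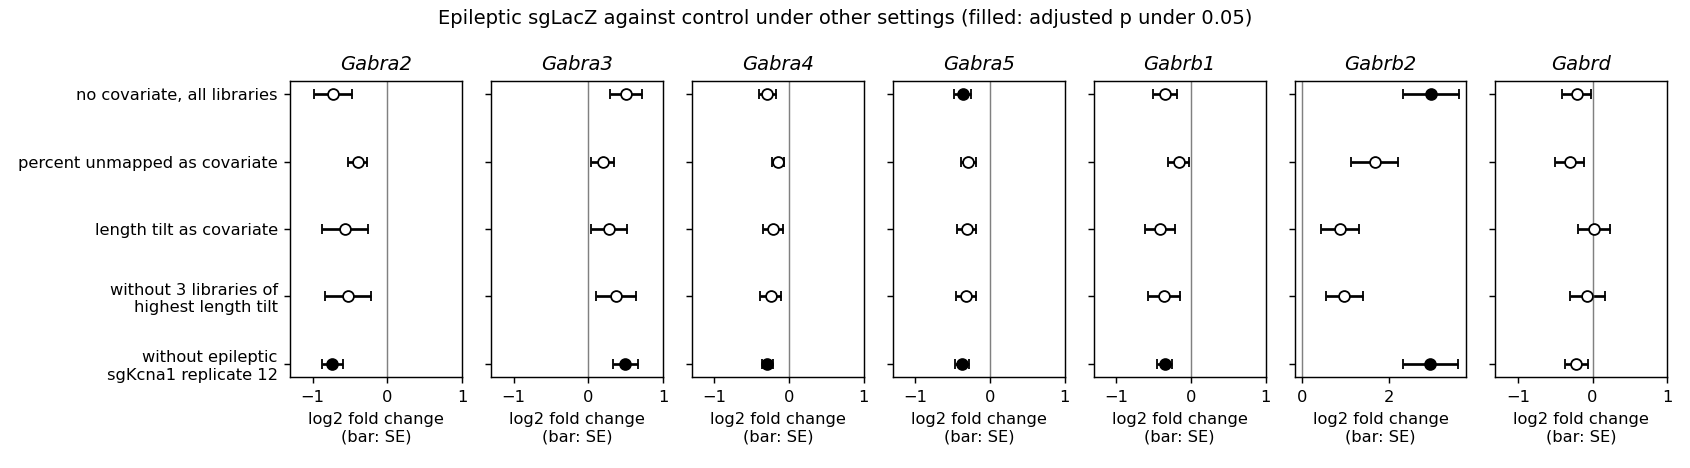
Log2 fold changes (points) with SE (bars) of epileptic sgLacZ against control for the 7 subunit genes under 5 settings, with a wider axis for Gabrb2. Filled points are past an adjusted P of 0.05, and Gabrb2 moves most, from 2.96 to 0.87 with length tilt as a covariate.

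Of the marker lists of cell types, only the astrocyte sums did not overlap between control and epileptic sgLacZ libraries. The summed level of 4 pan-neuronal markers was 4082 to 4406 CPM in controls and 3541 to 4084 in epileptic sgLacZ libraries, and that of 8 interneuron markers 1317 to 1627 and 885 to 1486. No gene of these 2 lists passed the threshold. The interneuron markers lay on both sides: Sst and Pvalb were at -0.80 and -1.01 on the log2 scale (adjusted P = 0.0505 and 0.0524), and Gad2, Slc32a1 and Lhx6 at 0.27, 0.14 and 0.49. The sum of 5 astrocyte markers was 931 to 1011 CPM in controls and 1025 to 1472 in epileptic sgLacZ libraries, and 2 of the 5 were called higher, among them Gfap, the intermediate filament of astrocytes (log2 fold change 0.60, adjusted P = 0.0447). The CA pyramidal markers summed to 458 to 537 CPM in controls and 478 to 568 in epileptic sgLacZ libraries, and of these Wfs1 was called higher (0.49) and Spink8 (-0.91) and Bok (-0.52) lower. Among the microglia markers (271 to 318 against 238 to 404 CPM), Csf1r, a growth factor receptor of these cells, was called higher (0.38, adjusted P = 0.0356). The rest of that list lay on both sides without a call, Cx3cr1, P2ry12 and C1qa at -0.27, -0.13 and -0.12 and Tmem119 at 0.25. The 5 oligodendrocyte markers summed to 6132 to 8835 CPM in controls and 4570 to 6776 in epileptic sgLacZ libraries with 0 called, and 0 were called among the markers of dentate granule cells, thalamus, cortex and choroid plexus. These calls stand against 7.26% of all genes tested called higher and 3.76% lower. The part of these lists in the subunit differences was not tested, and in whole tissue fewer cells of a type and less RNA per cell cannot be told apart.

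**Figure D4:**
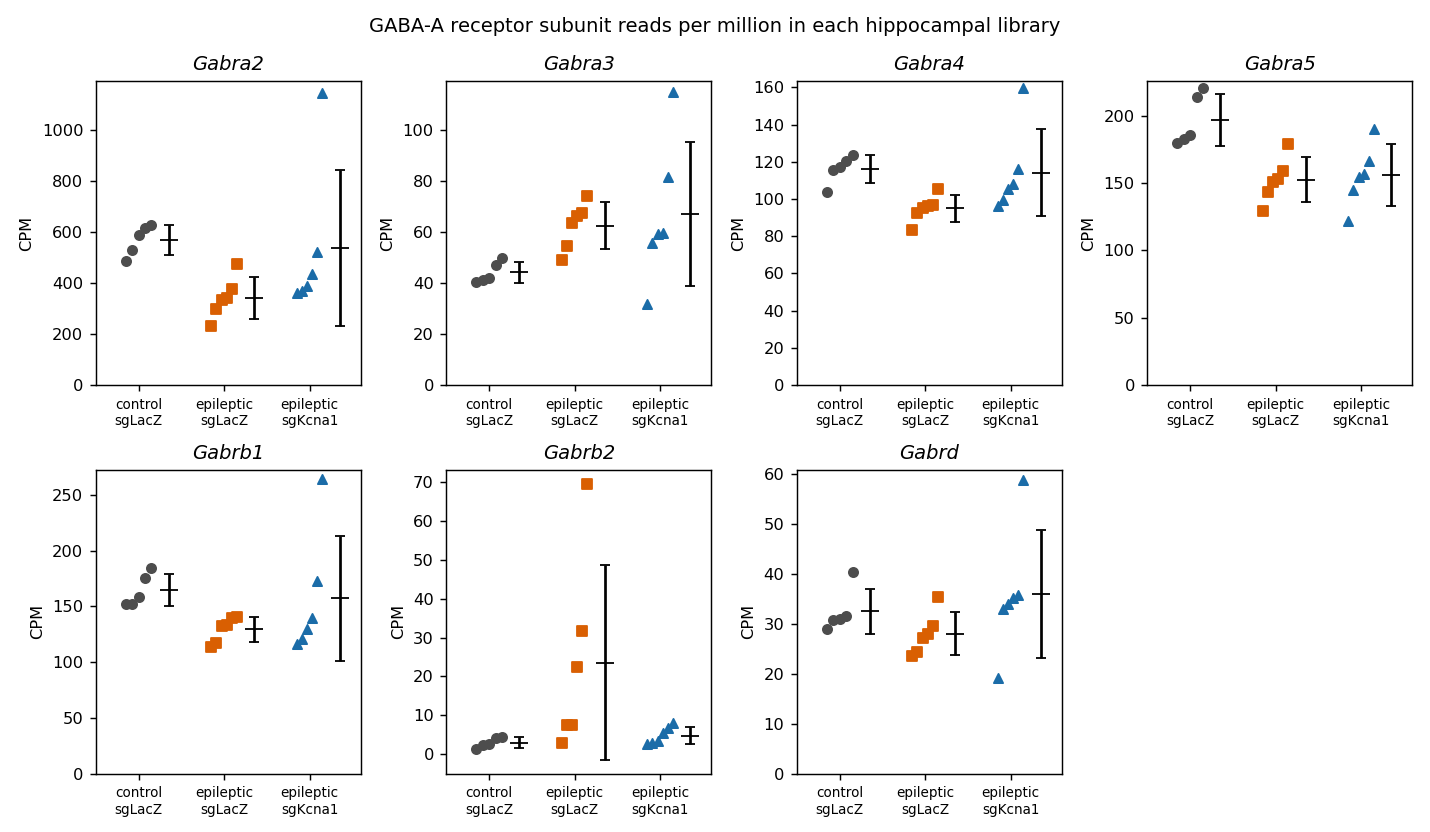
CPM of each subunit gene in every library (points, ordered by value within a group), with the group mean and SD (bars), for control sgLacZ (n = 5), epileptic sgLacZ (n = 6) and epileptic sgKcna1 (n = 6). Gabra2, Gabra5 and Gabrb1 are lower in all epileptic sgLacZ libraries than in all controls, and epileptic sgKcna1 replicate 12 stands far above its group for Gabra2 at 1146 CPM.

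The second question was whether the Kcna1 guide moved the subunit genes in epileptic mice. No member differed past the threshold between epileptic sgKcna1 and epileptic sgLacZ libraries, and neither did any other gene (0% in either direction with edgeR, against 8.69% higher and 10.5% lower at an unadjusted P under 0.05). DESeq2 called 65 genes higher and 78 lower, Gabrb2 among the latter, and limma 10 and 2, without a member. With epileptic sgLacZ replicate 5 left out, edgeR called 757 higher and 751 lower, Gabrb2 among the latter. It called 5 higher without epileptic sgKcna1 replicate 11 and 1 higher without control replicate 13. Of the 17 fits without 1 library, 14 called no gene, so the count of 0 depends on the libraries used. The means of 6 of the 7 genes were higher with sgKcna1 and that of Gabrb2 lower, with a median log2 fold change of 0.27 over the members and -0.01 over all genes. At an unadjusted P under 0.05, 2 members were higher (Gabra2 and Gabra4) and 1 lower (Gabrb2). No member was without overlap, against 0.238% of all genes higher and 0.244% lower. This comparison shares the epileptic sgLacZ libraries with the first, so opposite signs in both follow in part from the shared libraries. Marker lists also differed here, without a called gene. Choroid plexus markers had a median log2 fold change of -1.02 (-1.25 to -0.75 over 5 genes) and dentate granule cell markers -0.44 (-0.71 to 0.56 over 6). Medians of the other lists lay between -0.22 (oligodendrocytes) and 0.36 (cortex). The part of these lists in the subunit differences was not tested.

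Gabra2 lay between 359 and 1146 CPM in epileptic sgKcna1 libraries (median 412), with a log2 fold change of 0.65 against epileptic sgLacZ (SE 0.24, adjusted P = 0.214). Replicate 12 alone lay at 1146, while the remaining 5 had a mean of 414 ± 67.0 CPM (SD, n = 5). With it left out the log2 fold change was 0.27. Gabra4 ranged from 96.2 to 159.6 CPM (median 107) with 0.27 (SE 0.11, adjusted P = 0.226), and without replicate 12 with 0.14. Gabrb1 ranged from 116 to 264 CPM (median 135) with 0.28 (SE 0.16, adjusted P = 0.319), and without replicate 12 with 0.07. Replicate 12 thus held the highest value of Gabra2, Gabra4, Gabra5 and Gabrb1 in its group, and the lowest of Gabra3, Gabrb2 and Gabrd.

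Gabrb2 was between 2.52 and 8.03 CPM in epileptic sgKcna1 libraries (median 4.30), within the lower part of the epileptic sgLacZ range. Its log2 fold change of -2.28 (SE 0.58) did not pass with edgeR (adjusted P = 0.213) and passed with DESeq2 (adjusted P = 0.0398). Without epileptic sgLacZ replicate 5, the library inside the control range, it was -2.51 (SE 0.50) and passed with edgeR (adjusted P = 0.0377). Without epileptic sgLacZ replicates 4, 7 and 9 it was -0.29 (adjusted P = 1.00). Gabrd was between 19.2 and 58.8 CPM (median 34.5), with a log2 fold change of 0.36 (SE 0.18, adjusted P = 0.277). Gabra3, from 31.7 to 115 CPM (median 59.2), and Gabra5, from 121 to 190.3 CPM (median 156), differed by 0.11 (SE 0.20, adjusted P = 0.781) and 0.03 (SE 0.10, adjusted P = 0.878), less than the spread between replicates.

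**Figure D5:**
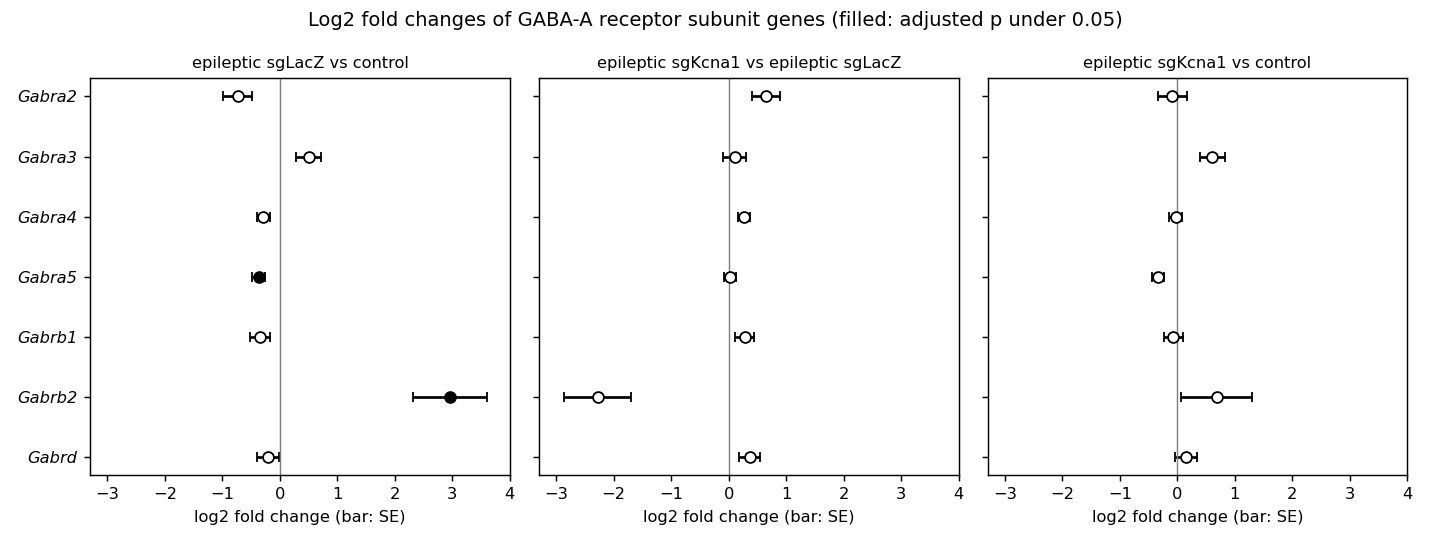
Log2 fold changes (points) with SE (bars) of the 7 subunit genes in the 3 comparisons, which share libraries with each other. The filled points, Gabra5 and Gabrb2 in epileptic sgLacZ against control, are the 2 calls past an adjusted P of 0.05.

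The third comparison set epileptic sgKcna1 against control libraries, and shares libraries with both others. Again 0% of genes were called in either direction, with 4.29% higher and 2.48% lower at an unadjusted P under 0.05, while DESeq2 called 24 higher and 15 lower without a member and limma 36 and 35 with Gabra5 among the latter. With percent unmapped as a covariate edgeR called 195 higher, Gabra3 among them, and 71 lower, and without epileptic sgKcna1 replicate 12 it called 12 and 2 without a member. The members at that unadjusted level were 1 higher, Gabra3 with a log2 fold change of 0.61 (SE 0.22, adjusted P = 0.674), and 1 lower, Gabra5 with -0.34 (SE 0.11, adjusted P = 0.619). No member was without overlap between these groups, against 0.562% of genes higher and 0.573% lower. Gabra5 thus had similar differences from control in both epileptic groups, -0.37 and -0.34, against the same 5 control libraries. The other members lay between -0.08 and 0.68 (Gabra2 and Gabrb2). The values near 0 rest on epileptic sgKcna1 replicate 12: without it Gabra2 was -0.46 (SE 0.15, adjusted P = 0.152), Gabra4 -0.15 (adjusted P = 0.301) and Gabrb1 -0.28 (adjusted P = 0.190), on the side of the epileptic sgLacZ differences.

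Other genes of GABA-A receptor signalling were taken as lists. Of the 12 subunit genes outside the 7, 8 were tested and 0 were called in any comparison (adjusted edgeR test). At an unadjusted P under 0.05, only Gabre, the epsilon subunit, was higher in epileptic sgLacZ than in control libraries (log2 fold change 1.89, adjusted P = 0.0958, at 0.764 against 0.207 CPM). Of 7 genes of neurosteroid synthesis, whose products enhance delta-containing receptors, 5 were tested and 0 called, and 0 had an unadjusted P under 0.05.

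Of 20 genes that anchor, traffic or accompany GABA-A receptors, all tested, 3 were called higher and 2 lower in epileptic sgLacZ against control libraries, and 0 in the other comparisons. Over all genes tested, 7.26% were called higher and 3.76% lower in the first comparison, and so few genes in a list say little beyond that share. Iqsec3, an exchange factor of inhibitory synapses that binds the scaffold gephyrin, rose by 0.81 (SE 0.26, adjusted P = 0.0497). Trak1, an adaptor that links cargo to motor proteins, rose by 0.71 (SE 0.18, adjusted P = 0.0347). Gabarap and Gabarapl2, related proteins of receptor trafficking and autophagy named after their values were seen, fell by 0.38 and 0.39. Their relative Gabarapl1 went the other way, by 0.58, and did not pass (adjusted P = 0.0532). The median log2 fold change of the 20 was 0.14, against 0.02 over all genes. Gephyrin itself, Gphn, did not pass (0.29, adjusted P = 0.181). With length tilt as a covariate, none of these calls remained, since no gene of the table was called.

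Across the 17 libraries the members of chromosome 5 had correlated log2 CPM, with Pearson r of 0.88 for Gabra2 and Gabra4, 0.86 for Gabra2 and Gabrb1 and 0.70 for the head-to-head neighbours Gabra4 and Gabrb1. After subtraction of group means and without epileptic sgKcna1 replicate 12, these were 0.54, 0.54 and -0.02 over 16 libraries. Gabra3 and Gabra5 had r = -0.76, and Gabra2 and Gabrb2 -0.73. All genes of a library share its depth, length tilt and composition, and the values are a description. The annotated genes whose log2 CPM was most like that of a member (highest Pearson r over 17 libraries) were Celf2 for Gabra2 (0.97), Acvr2a for Gabra3 (0.95), Gpm6b for Gabra4 (0.96), Elmod1 for Gabra5 (0.88), Pcdh17 for Gabrb1 (0.96), Zkscan16 for Gabrb2 (0.96) and Galt for Gabrd (0.87). Next after these came 2610101N10Rik and Zrsr2 for Gabra2, Fgf12 and BC005764 for Gabra3, Yod1 and Hmgb1 for Gabra4, Wasf1 and Kcnd2 for Gabra5, Sbno1 and Slc8a1 for Gabrb1, Wdr81 and Sorcs2 for Gabrb2, and Rassf3 and Cabyr for Gabrd, with r from 0.85 to 0.97.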

How the data were processed

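Polyadenylated RNA of 17 mouse hippocampi was sequenced, and the authors aligned reads to mm10 with STAR 2.7. What the authors deposited are unnormalised counts for 55450 genes, 1 list per library, in 3 columns (unstranded, forward, reverse). Annotation release and trimming are not given in the sources used here. Reverse over forward reads was 0.994 to 0.998, so counts of either strand were taken. A kit without strand is named in the labels, a stranded one in the methods. Reads mapping to several places are not in these counts. Symbols were matched for 32620 genes by Ensembl identifier. Transcript lengths came from an older annotation (mm9), from which no coordinates were taken.

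The main tests were run with edgeR 4.0.16 in R 4.3.3 (filterByExpr by group, TMM scaling, two-sided quasi-likelihood F test, 17 libraries in 1 fit with no covariate, Benjamini-Hochberg adjustment over 17615 genes, threshold 0.05). The SE was computed from the fold change and its F statistic. Correlations used log2 CPM with a prior count of 2. Length tilt used genes with a mean log2 CPM above 3. Libraries of a group differed beyond sampling noise in all 40 pairs (chi-square per degree of freedom 8.67 to 220), so none was counted as a copy. The tests were also run on simulated counts with known changes. Those counts held no length tilt and no library that stood apart, so they cannot show how the tests behave with either. Alternatives were DESeq2 1.42.0 (the study's tool), limma 3.58.1 with quality weights, other scaling, filters, strands and covariates, and leaving out each library. The 7 genes, the gene lists and the markers were chosen with earlier results of these data known. Named besides the members were up to 3 called genes of largest change per list and comparison, and the 3 genes most like each member. A gene that this rule names is not reported here.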

Additional observations from a re-analysis of the deposited data

Results flagged for a closer look

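In 3 of the 21 sets formed by a member and a group, 1 library stood apart from the rest by Dixon's test, which flags about 1 set in 20 by chance. Gabra2 in epileptic sgKcna1 replicate 12 had 1146 CPM, and the gap to the next library was 0.793 of the group's range. Gabra4 in the same library had 159.6 CPM, with a gap of 0.687 of the range. This library also had the fewest reads (11839240) and the highest share of unmapped reads (41.5%) of the 17. Gabrd in control replicate 23 had 40.3 CPM, with a gap of 0.762 of the range.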

How the results depend on the processing

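No paired analysis was possible because the groups share no replicate numbers. For epileptic sgLacZ against control, where 2 members were called, limma with quality weights and a fit of only the groups compared called 6 each, DESeq2 3, no low-count filter, the sum of both strands and a sex covariate 1 each, and the percent unmapped covariate, the length tilt covariate and the fit without the 3 libraries of highest tilt 0 each, and leaving out 1 library gave 0 to 6. Over all genes, limma called 3769 higher and 3532 lower there, and the fit of only the groups compared 1850 and 1195. For epileptic sgKcna1 against epileptic sgLacZ, DESeq2 called 1 member in place of 0, and leaving out 1 library gave 0 to 1. For epileptic sgKcna1 against control, limma and the percent unmapped covariate called 1 each (Gabra5 and Gabra3). The cause was not tested. Gabra5 in the first comparison was called in 4 of 17 fits without 1 library and in 4 of 10 other settings, and Gabrb2 in 10 and 7.

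Of 567 values of member and comparison under alternatives, 16 changed sign, none past the threshold. With the length tilt covariate, epileptic sgKcna1 against control turned to 0.020 for Gabra2, 0.016 for Gabra4 and -0.14 for Gabrb2, and epileptic sgLacZ against control to 0.018 for Gabrd. Gabra5 in epileptic sgKcna1 against epileptic sgLacZ turned to -0.0028 with both strands summed, -0.067 with percent unmapped as a covariate and -0.014 without the 3 libraries of highest tilt. Leaving out 1 library gave, against epileptic sgLacZ, -0.12 to 0.24 for Gabra3 and -0.038 to 0.096 for Gabra5, and against control -0.46 to 0.0076 for Gabra2, -0.15 to 0.021 for Gabra4, -0.28 to 0.0078 for Gabrb1 and -0.044 to 0.27 for Gabrd.

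Over all genes, epileptic sgLacZ against control gave 1278 higher and 662 lower, DESeq2 2070 and 1616, limma 3769 and 3532, a fit of only those groups 1850 and 1195, the sex covariate 389 and 127, percent unmapped 252 and 176, and the length tilt covariate 0 (edgeR, 1099 at an unadjusted P under 0.05). Gabrb2 rested on 24 to 108 reads per library in controls, the thinnest coverage of the members.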
